A study of Mus musculus with 16 samples.

Results

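The voltage-gated calcium and sodium channel genes comprised 40 protein-coding mouse genes, the Cacna1, Cacna2d, Cacnb and Cacng families and the Scn alpha and beta subunit genes. Chromatin accessibility at these genes was compared by ATAC-seq, which maps open chromatin through insertion of a transposase, in SCLC cells from tumors of TKO;Hes1 GFP/+ mice. All tumor cells carried the TKO deletions of Rb, p53 and p130 and 1 GFP reporter allele of Hes1, a Notch target, and tumors had been induced in adult lungs with an adenovirus that expresses Cre from the CMV promoter, which is not restricted to one cell type. GFPhigh cells (Hes1-positive, non-NE) were compared with GFPneg cells (Hes1-negative, NE), both sorted from the pooled tumors of each mouse. There were 8 libraries, 4 per group, from 3 mice, 1 of which contributed 2 pairs, and each library was run on 2 lanes. A listed peak was one called differentially accessible over all libraries, and is called opened where accessibility was higher in GFPhigh than in GFPneg cells and closed where it was lower. A peak was counted for a channel gene when the protein-coding start site nearest to its centre belonged to that gene, which held for 306 of 80367 listed peaks. The files give no value per library, so a peak has a direction and the authors' mean normalized signal over all libraries of both groups, without an error. This signal counts reads over the whole peak and is not divided by its width. A peak in neither list may be unchanged, below the limits of the lists or closed in both groups, and these cannot be told apart here.

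Voltage-gated calcium channels open on depolarization and let in the calcium that triggers hormone and transmitter release, so they are central to the excitable, secretory behavior of neurons and neuroendocrine cells. Their pore is formed by a Cacna1 subunit (L-type, P/Q-, N- and R-type, or T-type), while Cacna2d and Cacnb subunits bring the pore to the membrane and tune its gating. Most Cacng proteins act on AMPA-type glutamate receptors as well as, or instead of, calcium channels. Voltage-gated sodium channels drive the rising phase of the action potential through an Scn alpha pore, and Scn beta subunits are small membrane proteins that modulate the pore and act in adhesion.

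Sequences from some of the channel peaks are given first, read from the GRCm38 (mm10) reference along the strand of the gene. The first is a window in an intron near the start of Cacna1b, the N-type pore gene, in the closed peak chr2:24761847-24762179. It is shown because it was the one channel peak with an RE1 match of up to 3 mismatches, RE1 being the DNA element bound by the neuronal gene repressor REST, and the 20 matched bases are in capitals. The others are the exon-free stretches of the 4 closed and 2 opened promoter peaks with the highest signal among those of at most 300 bp. In these, capitals mark the E-box word CAGCTG or the AP-1 word TGANTCA, the only ones of 8 searched words found in them.
Cacna1b intron, closed, chr2:24762044-24762143, minus strand: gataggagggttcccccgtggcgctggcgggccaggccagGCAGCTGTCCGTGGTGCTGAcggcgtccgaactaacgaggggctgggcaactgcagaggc
Cacna1b promoter, closed, chr2:24763153-24763365, minus strand: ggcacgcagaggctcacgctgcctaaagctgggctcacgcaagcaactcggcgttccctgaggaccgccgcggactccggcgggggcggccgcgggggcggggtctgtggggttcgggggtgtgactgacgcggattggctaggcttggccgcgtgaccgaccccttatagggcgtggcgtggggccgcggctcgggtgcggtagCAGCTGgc
Cacnb4 promoter, closed, chr2:52558568-52558766, minus strand: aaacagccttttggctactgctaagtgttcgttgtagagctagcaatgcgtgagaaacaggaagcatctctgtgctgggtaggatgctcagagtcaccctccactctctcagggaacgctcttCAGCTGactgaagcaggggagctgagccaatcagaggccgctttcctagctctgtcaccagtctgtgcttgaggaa
Scn3a promoter, closed, chr2:65567628-65567810, minus strand: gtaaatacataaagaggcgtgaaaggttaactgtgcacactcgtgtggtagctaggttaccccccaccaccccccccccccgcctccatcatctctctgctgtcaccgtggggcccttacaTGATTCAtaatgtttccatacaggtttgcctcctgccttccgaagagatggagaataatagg
Cacna2d1 promoter, closed, chr5:15935110-15935297, plus strand: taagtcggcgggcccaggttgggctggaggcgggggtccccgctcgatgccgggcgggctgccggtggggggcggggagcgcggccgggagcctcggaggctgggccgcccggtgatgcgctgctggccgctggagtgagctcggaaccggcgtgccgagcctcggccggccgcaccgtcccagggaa
Cacna1c promoter, opened, chr6:119108574-119108766, minus strand: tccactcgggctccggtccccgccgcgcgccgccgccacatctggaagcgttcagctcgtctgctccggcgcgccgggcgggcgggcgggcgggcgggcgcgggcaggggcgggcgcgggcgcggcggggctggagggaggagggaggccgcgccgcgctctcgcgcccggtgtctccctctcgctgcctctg
Cacnb3 promoter, opened, chr15:98632249-98632375, plus strand: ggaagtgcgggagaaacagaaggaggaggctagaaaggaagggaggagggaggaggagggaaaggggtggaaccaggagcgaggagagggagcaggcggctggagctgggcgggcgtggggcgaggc
The E-box word stood in the closed Cacna1b and Cacnb4 promoter stretches and the AP-1 word in the closed Scn3a stretch. None of the 8 words was found in the Cacna2d1, Cacna1c and Cacnb3 stretches. In the Cacna1b intron window the E-box word lay within the RE1 match.

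Of the 306 channel peaks, 76 opened and 230 closed in GFPhigh cells, so 24.8% opened (95% Wilson interval 20.3 to 30.0%). Over all listed peaks the share that opened was 50.8% and the share that closed was 49.2%. Peaks of 1 gene share a locus and are not replicates, and all intervals given here cover counting error only. Listed peaks were assigned to 34 of the 40 genes, with 17 genes having closed peaks only, 5 having opened peaks only and 12 having both. Of all protein-coding genes 66.5% had a listed peak, and of these 14590 genes 3159 had closed peaks only, 5380 had opened peaks only and 6051 had both. The genes without a listed peak were Cacna1s, Cacng6, Cacng8, Scn10a, Scn11a and Scn4b. Among genes with at least 5 listed peaks, closed peaks were the majority in 16 of 18 channel genes (88.9%), against 46.5% of 5358 protein-coding genes. The 5 genes with most peaks (Cacna1c, Cacnb2, Cacna2d1, Cacnb4 and Scn3a) held 136 of the 306 peaks, and leaving out any 1 gene kept the opened share between 21.9% (without Cacna1c) and 27.3% (without Cacna2d1). The channel genes are long, with a median length of 105 kb against 17.4 kb for all protein-coding genes.

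**Figure D1:**
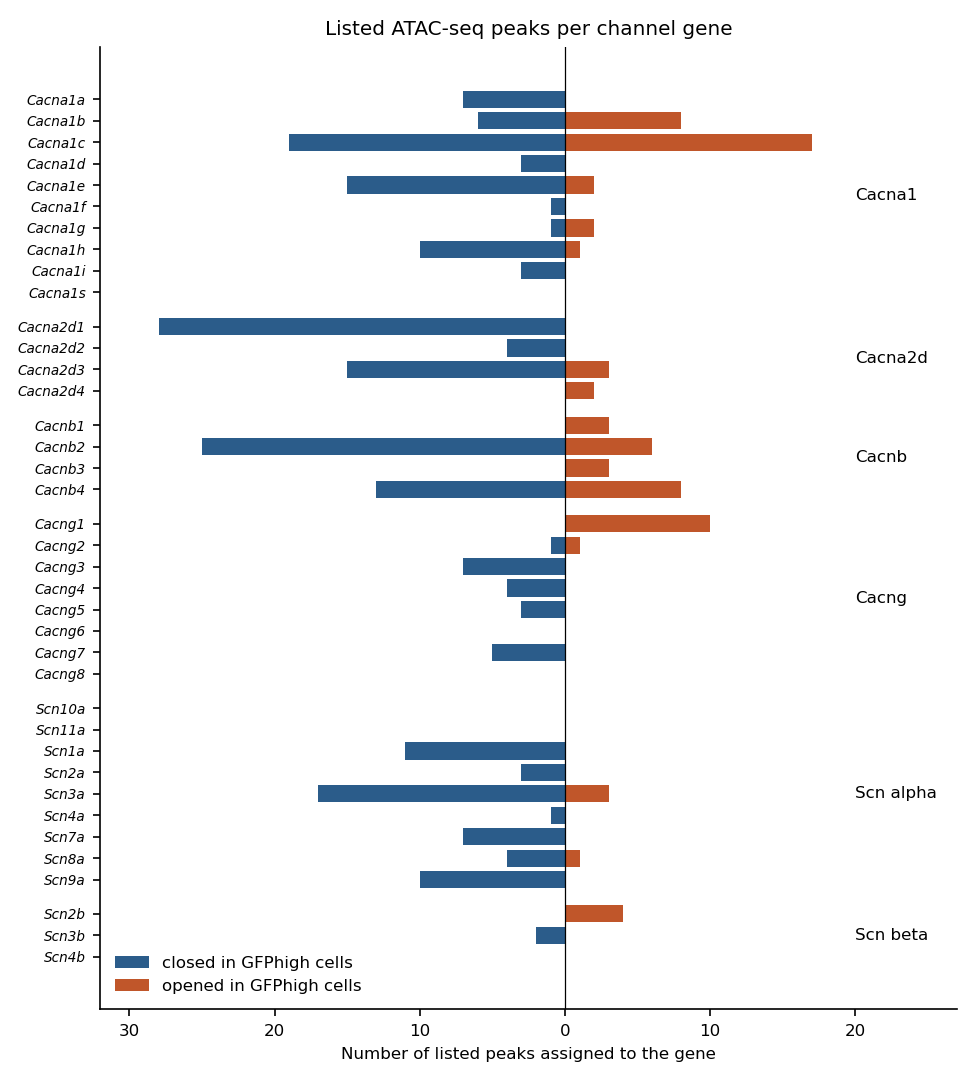
Number of listed peaks assigned to each of 38 of the 40 channel genes, with closed peaks as blue bars to the left and opened peaks as orange bars to the right, grouped by subfamily. Closed peaks dominate at Cacna2d1 (28 closed, 0 opened) and the Scn alpha genes, while Cacna1b (6 closed, 8 opened), Cacna1c (19 closed, 17 opened) and Cacng1 (0 closed, 10 opened) stand apart.

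The sorted populations were checked at marker genes. A closed promoter peak was listed at 8 of 10 NE markers, including Insm1, Calca and Chga, and an opened one at none, beside 8.43% and 26.6% of all protein-coding genes. Over all their peaks the NE markers had 11 opened and 65 closed, and Chga had 8 opened and 6 closed. All 7 non-NE markers, including Hes1, Rest and Yap1, had an opened promoter peak and none had a closed one, and over all their peaks they had 69 opened and 20 closed. The sort took CD24-positive cells without CD45, CD31 or TER-119. Markers of other cells gave 14 opened and 5 closed peaks at 5 leukocyte genes, 12 and 39 at 4 endothelial genes, 10 and 13 at 4 fibroblast genes, and 7 and 2 at 4 smooth muscle genes. At most 1 gene of each of these lists had an opened promoter peak (Cd68, Kdr, Col1a1 and no smooth muscle gene), and closed promoter peaks were listed at Tek and Col1a2. The part of such cells in the channel results was not tested.

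Among the 10 Cacna1 pore genes, 95 peaks were listed, of which 30 opened (31.6%, interval 23.1 to 41.5%). The L-type genes Cacna1c, Cacna1d and Cacna1f had 40 peaks, 17 opened and 23 closed, and all 17 opened peaks were at Cacna1c. Cacna1c encodes the main L-type pore of heart and many endocrine cells and held the most peaks of any channel gene (36). Its peaks switched direction repeatedly along the gene, falling into 17 runs of like direction, and 35 of them lay inside the gene. The opened intron peak chr6:118934326-118934982, 262 kb from the 5′ end of the gene, had a signal of 257, the highest of all opened channel peaks. The highest closed peak of the gene (chr6:118921381-118921911, signal 124) lay 275 kb from the 5′ end. Cacna1c has 10 annotated start sites, and the peak at one of them opened (chr6:119108512-119108766, signal 74.5, centred 66 bases upstream). Peaks at 2 other start sites of the gene closed, chr6:118756900-118757413 with a signal of 36.2 and chr6:118780398-118780539 with a signal of 12.5. Opened and closed peaks thus alternated along this gene, and its start sites had peaks of both directions. Cacna1d, the L-type pore found in many neuroendocrine cells, had 3 closed peaks, all at least 36.1 kb from a start site, with signals up to 57.5. Cacna1f, the retinal L-type pore, had 1 closed peak with a signal of 8.86.

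The presynaptic pore genes Cacna1a (P/Q-type), Cacna1b (N-type) and Cacna1e (R-type), which supply calcium for vesicle release, had 10 opened and 28 closed peaks. At Cacna1b the 2 directions were separated in space. All 4 peaks within 1 kb of its start sites closed, the highest with a signal of 148 (chr2:24763076-24763365, centred 68 bases upstream), and so did the RE1-bearing peak 1.03 kb downstream, with a signal of 126. The 8 opened peaks of Cacna1b lay 83.7 to 129 kb inside the gene, with signals of 7.50 to 94.4 and a median of 20.5. Its one further closed peak (signal 11.2) lay 61.9 kb upstream, in an exon of Ehmt1. Cacna1a had 7 closed and 0 opened peaks, with 2 at its promoters (signals 41.3 and 17.7) and the highest signal at 88.0. Cacna1e had 15 closed and 2 opened peaks, and its closed peaks included 2 near an internal start (signals 25.1 and 18.3).

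The T-type genes, whose channels open near the resting potential, had 3 opened and 14 closed peaks. Cacna1h had 10 closed peaks and 1 opened intron peak 4.40 kb from the start (signal 81.6), and its highest closed peak had a signal of 94.3. Cacna1g had the only listed promoter peak of the T-type genes, and it opened (chr11:94474159-94474707, signal 148). Its other listed peaks had low signals, 6.42 for 1 opened peak and 8.06 for 1 closed peak. Cacna1i had 3 closed peaks, with signals of 14.4 to 55.7.

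**Figure D2:**
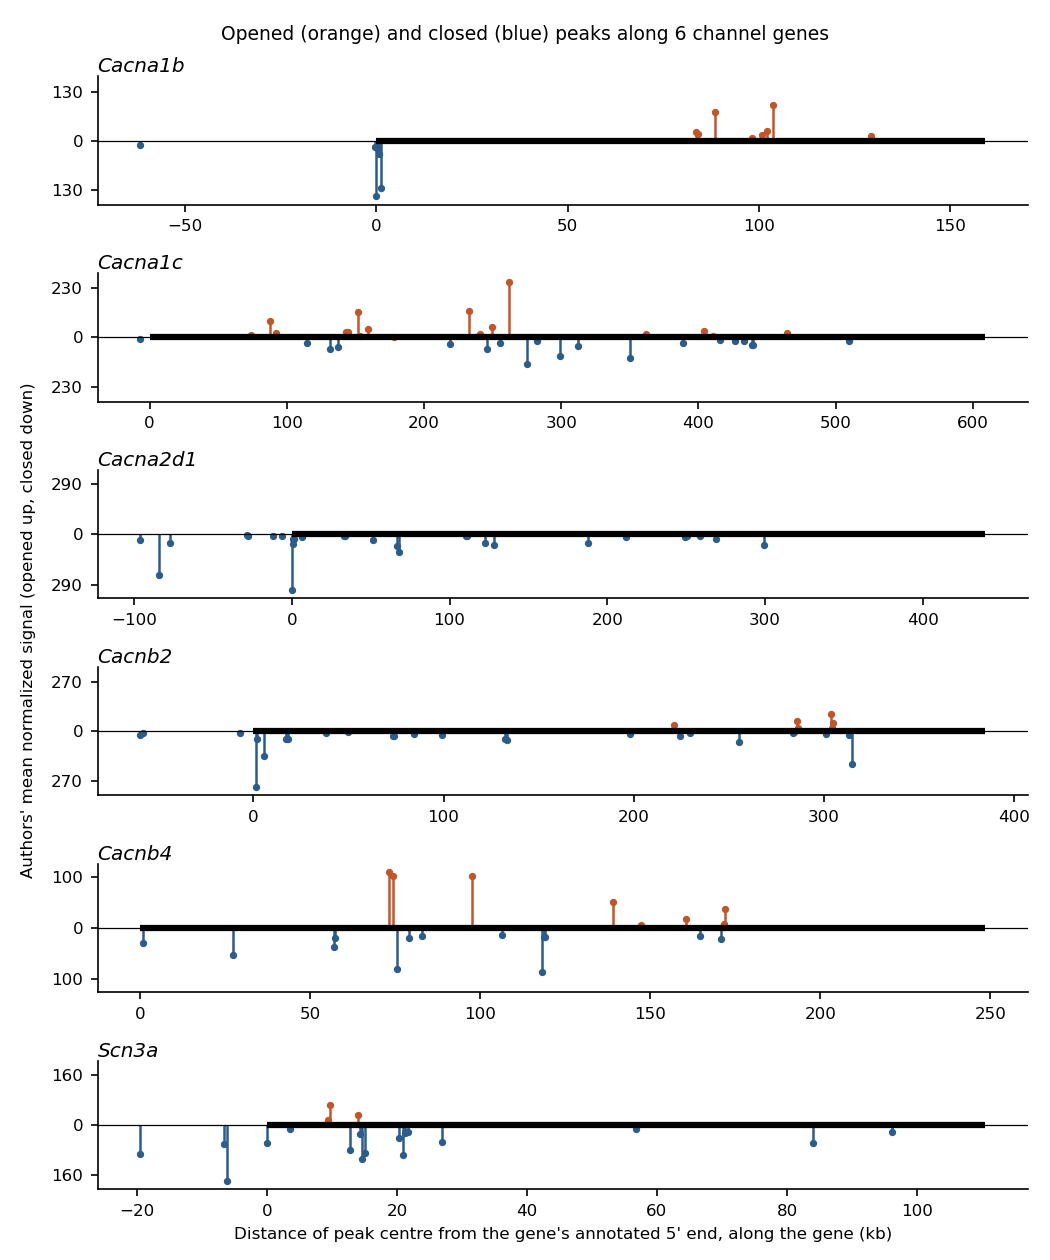
Opened (orange, upward) and closed (blue, downward) listed peaks along 6 channel genes, with the authors' mean normalized signal as height and the distance in kb from the annotated 5′ end of the gene on the horizontal axis; the black bar is the gene body. Cacna1b has closed peaks at its 5′ end and opened peaks 83.7 to 129 kb inside, Cacna1c alternates, and all 28 peaks of Cacna2d1 closed.

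The Cacna2d genes encode the extracellular subunits that carry channels to the surface and are the binding sites of gabapentin-type drugs in the case of Cacna2d1 and Cacna2d2. They had 52 peaks, of which 5 opened (9.62%, interval 4.18 to 20.6%). Cacna2d1 held 28 closed and 0 opened peaks, spread from 96.4 kb upstream to 299 kb inside the gene. The highest of its 3 promoter peaks (chr5:15934377-15935052, signal 322) had the second-highest signal of the closed channel peaks. A peak 84.2 kb upstream had a signal of 233. Cacna2d2 had 4 closed peaks, with signals of 15.4 to 89.6. Cacna2d3 had 15 closed peaks, with signals up to 42.2, and 3 opened peaks with signals of 72.4, 72.7 and 165. Its opened peaks were thus fewer and higher in signal, but they were also wide (500, 612 and 570 bp). Cacna2d4 had 2 opened peaks with signals of 18.2 each, neither inside the gene, and 1 of them in an exon of Dcp1b.

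The Cacnb genes encode cytoplasmic subunits that chaperone the pore. Of 58 peaks, 20 opened (34.5%, interval 23.6 to 47.3%). Opened peaks were the only ones at Cacnb1 and Cacnb3, while Cacnb2 and Cacnb4 had both directions. Cacnb1, the skeletal muscle form, had 3 opened and 0 closed peaks, with signals of 27.3 and 29.3 in introns and 193 at the promoter (chr11:98022457-98023115). Cacnb3 likewise had 3 opened and 0 closed peaks, 2 at start sites (chr15:98634557-98635134, signal 168, and chr15:98632249-98632433, signal 49.8) and 1 in an intron (signal 112). Cacnb2 had 25 closed and 6 opened peaks, and the 2 promoter peaks near its 5′ end closed (chr2:14604048-14604744, signal 305, and chr2:14604859-14604996, signal 42.6). An internal start of Cacnb2, 221 kb further along, had an opened peak (chr2:14823854-14824242, signal 32.9), and all 17 listed peaks before it closed. Another 5 opened peaks lay 286 to 305 kb from the 5′ end, beside closed peaks with signals up to 177. Cacnb4 had 13 closed and 8 opened peaks. Its 4 promoter peaks closed, with signals of 17.0 to 87.2, while the 3 highest opened peaks (104, 104 and 110) lay in introns.

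The Cacng genes had 31 peaks, 11 opened and 20 closed, which gave 35.5% opened (interval 21.1 to 53.1%). Of the opened peaks, 10 were assigned to Cacng1, the gamma subunit of the skeletal muscle calcium channel. Only 1 of the 10 lay in Cacng1 itself, 4 lay in introns of the neighboring gene Helz, and 5 lay between Cacng1 and Cacng4. The Helz intron peak chr11:107648471-107649053 had a signal of 193, and the other 9 had signals of 10.1 to 78.4. The adjacent Cacng4 and Cacng5, which encode regulators of AMPA receptors, had 4 and 3 closed peaks and 0 opened ones, with signals of 7.29 to 50.3 and 17.9 to 38.0. The peak with a signal of 38.0 lay at the promoter of Cacng5. Closed peaks were also the only ones at Cacng3 (7 peaks, 4 of them in introns of Prkcb) and Cacng7 (5 peaks, 4 at the promoter, with signals of 14.3 to 39.0). Cacng2, which encodes stargazin, had an opened promoter peak (chr15:78119702-78120132, signal 120) and 1 closed peak 20.4 kb upstream (signal 14.2). An antisense transcript, A730060N03Rik, starts within 1 kb of that opened peak, and ATAC-seq does not tell strands apart.

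Cacna1g, Cacnb1, Scn4a, Cacng1, Cacng4 and Cacng5 lie on chromosome 11 beyond 50 Mb, where 79.9% of all 3954 listed peaks opened. There 15 of 24 channel peaks opened (62.5%, interval 42.7 to 78.8%). Without this stretch the opened share of the channel peaks was 21.6% (interval 17.2 to 26.8%), and that of the Cacng genes was 7.14% of 14 peaks. The part of this stretch in the directions of these 6 genes was not tested.

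The Scn alpha genes had 63 peaks, of which 6 opened (9.52%, interval 4.44 to 19.3%). Most of these peaks came from 1 cluster on chromosome 2, where Scn3a, Scn2a, Scn1a, Scn9a and Scn7a lie within 1.33 Mb. The cluster had 48 closed and 3 opened peaks, and all 9 of its promoter peaks closed. The highest of these were at Scn9a, which encodes a pore of sensory and sympathetic neurons (chr2:66634589-66635057, signal 252), and at Scn7a, which encodes a sodium-sensing channel (chr2:66784763-66785154, signal 124). The promoter peaks of Scn3a, Scn2a and Scn1a, pores of the brain, had lower signals, at most 56.8, 20.9 and 14.97. Away from promoters, the closed peak chr2:66482068-66482715, which overlaps an exon of Scn9a but is nearest to the start of Scn1a, had a signal of 296. A closed peak 6.18 kb upstream of Scn3a had a signal of 179. The 3 opened peaks of the cluster were all at Scn3a, in introns 9.34 to 13.98 kb from its 5′ end, with signals of 14.3, 30.6 and 63.5, and closed peaks with signals up to 110 lay between and just beyond them.

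Outside the cluster, Scn8a, a widely used neuronal pore, had a closed promoter peak (chr15:100870452-100870787, signal 54.3) among 4 closed peaks and 1 opened peak (signal 15.7). Scn4a, the skeletal muscle pore, had 1 closed peak with a signal of 62.0. Scn10a and Scn11a, pores of sensory neurons, had no listed peak.

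The 4 Scn beta genes had 7 peaks, too few for a useful share (57.1% opened, interval 25.05 to 84.2%). The closed promoter peak of Scn3b (chr9:40268847-40269791, signal 429) had the highest signal of all 306 channel peaks, and its second closed peak had a signal of 90.8. Scn2b was the only beta gene with opened peaks, 4 in all and none at a promoter, with signals of 4.30 to 38.9, and 3 of them lay inside the gene. Scn4b had no listed peak.

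**Figure D3:**
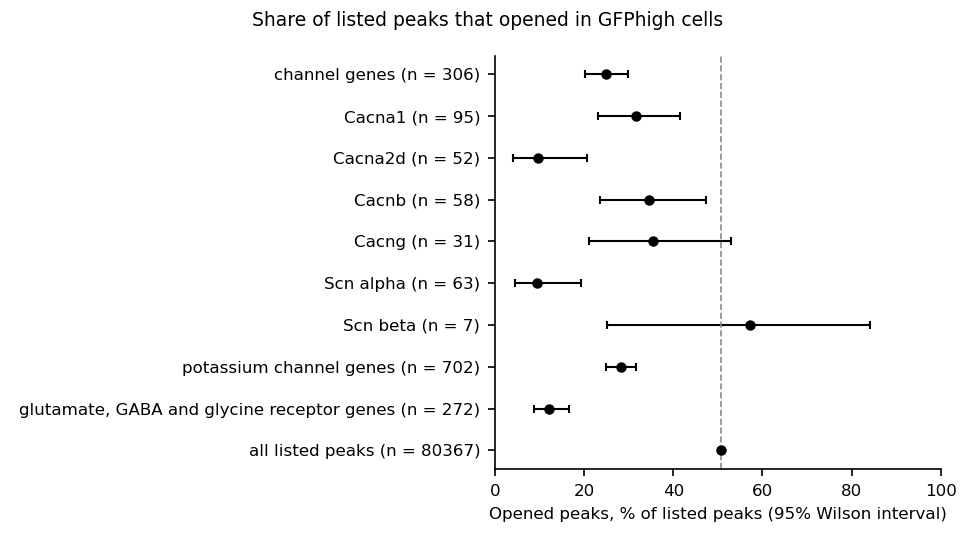
Opened peaks as a percentage of listed peaks, with 95% Wilson intervals, for the channel genes, their 6 subfamilies and the comparison sets; the dashed line is the share over all 80367 listed peaks (50.8%). The intervals of Cacna2d (9.62%) and Scn alpha (9.52%) lie below those of Cacna1 and Cacnb, and the Cacng and Scn beta intervals include the dashed line.

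The promoters were set apart, as peaks with the centre within 1 kb of a start site. The channel genes had 43 promoter peaks, 35 closed and 8 opened. Of the 40 genes, 16 had a closed promoter peak (40%), against 8.43% of all protein-coding genes, and 7 had an opened one (17.5%), against 26.6% of all protein-coding genes. Cacna1c and Cacnb2 had both, in each case at different start sites. Of the closed channel peaks, 15.2% were at promoters (interval 11.1 to 20.4%), against 6.74% of all closed peaks. Of the opened channel peaks, 10.5% were (interval 5.43 to 19.4%), against 18.8% of all opened peaks. Genes with an opened promoter peak included Cacna1c, Cacna1g, Cacnb1, Cacnb2, Cacnb3 and Cacng2, and none belonged to the P/Q-, N- or R-type pore genes, a Cacna2d gene or a gene of the chromosome 2 cluster.

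**Figure D4:**
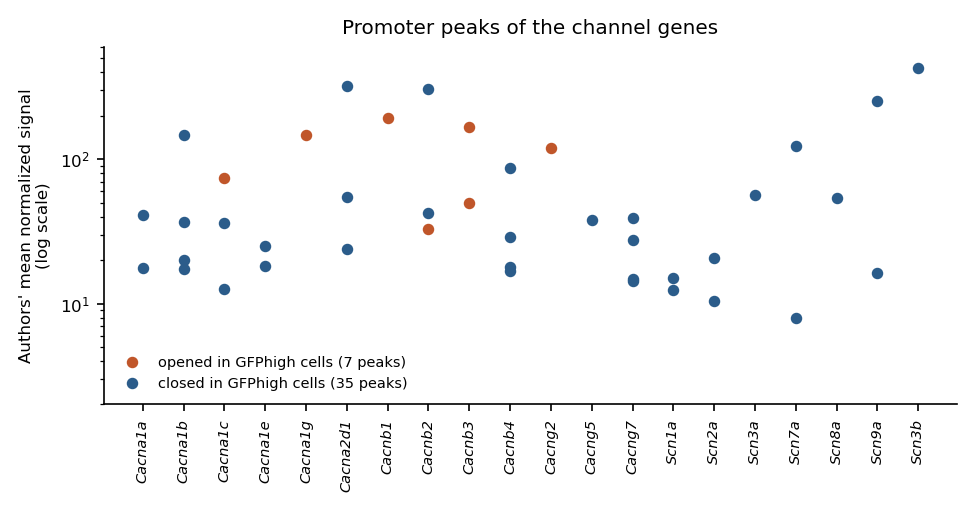
The authors' mean normalized signal (log scale) of 42 promoter peaks of the channel genes, 1 point per peak, with 7 opened peaks in orange and 35 closed peaks in blue. The highest points are the closed Scn3b (429), Cacna2d1 (322) and Cacnb2 (305) promoters, and the highest opened one is Cacnb1 (193).

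The opened share was furthest from that of all listed peaks close to start sites. Within 1 kb of a start, 18.6% of the channel peaks opened (interval 9.74 to 32.6%), against 74.3% of all listed peaks. From 1 to 10 kb the shares were 27.8% (interval 17.6 to 40.9%) and 58.8%, and from 10 to 50 kb they were 27.03% (interval 19.6 to 36.0%) and 52.3%. Beyond 100 kb, 27.9% of 43 channel peaks opened (interval 16.7 to 42.7%) and 32.5% of all listed peaks did, so the interval included the overall share there. The share of the channel peaks stayed between 18.6 and 27.9% in every distance class, while that of all peaks fell with distance.

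**Figure D5:**
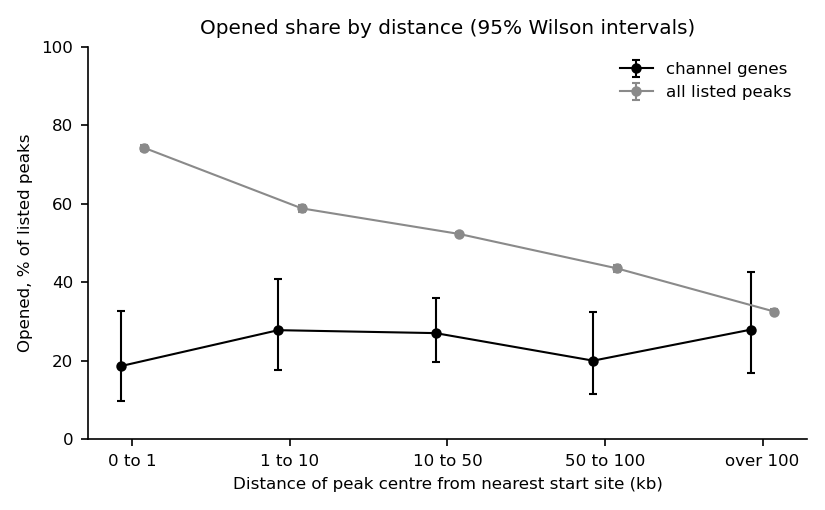
Opened peaks as a percentage of listed peaks by distance of the peak centre from the nearest protein-coding start site (kb), for the channel genes (black) and all listed peaks (grey), with 95% Wilson intervals. The black points stay between 18.6 and 27.9%, while the grey points go from 74.3% within 1 kb to 32.5% beyond 100 kb.

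In place and size the channel peaks were mostly intragenic, with 232 of 306 inside the gene they were assigned to (75.8%). A further 12 lay in another protein-coding gene, 3 in another channel gene and 59 in no protein-coding gene. Introns held 67.4% of closed and 75% of opened channel peaks, against 52.7% and 46.5% over all listed peaks. The median signal was 24.7 for closed and 28.6 for opened channel peaks, and the 95% intervals of these medians overlapped (20.2 to 29.4 and 20.9 to 44.5). Over all listed peaks the medians were 25.8 and 40.7. Median widths were 233 bp for closed and 256 bp for opened channel peaks, and median GC contents were 49.9% and 51.2%. Median distances to the start site were 22.0 kb for closed channel peaks and 24.9 kb for opened ones, against 42.4 and 17.5 kb over all listed peaks.

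The central 200 bp of each peak was searched on both strands for 8 short words. The AP-1 word TGANTCA stood in 20.9% of closed channel peaks (interval 16.1 to 26.6%) and 7.89% of opened ones (interval 3.67 to 16.2%), against 26.4% and 10.6% over all listed peaks. The TEAD word GGAATG went the other way, with 6.96% of closed (interval 4.33 to 11%) and 21.1% of opened channel peaks (interval 13.4 to 31.5%), against 8.78% and 18.1%. The intervals of the closed and opened channel peaks did not overlap for TEAD and overlapped slightly for AP-1. Over whole peaks the TEAD intervals overlapped as well (8.92 to 17.5% of closed and 16.6 to 35.8% of opened channel peaks). For both words the direction was seen over all listed peaks. The FOX word TGTTTAC was found in 10.9% of closed and 3.95% of opened channel peaks (9.70% and 6.85% over all), and the NKX2 word CACTTGA in 3.91% and 10.5% (5.03% and 6.68% over all). The E-box word CAGCTG, was in 18.7% of closed and 17.1% of opened channel peaks, against 22.6% and 12.0% over all. The RBPJ word TGGGAA, bound by the DNA-binding partner of Notch, was in 19.6% and 22.4% (16.3% and 20.7% over all). The NFI word TTGGCA was in 16.5% and 17.1% (13.4% and 18.0% over all), and the RUNX word TGTGGTT in 4.78% and 7.89% (3.58% and 8.35% over all). A word match is a description of the sequence, not a bound site. RE1 matches of up to 3 mismatches were in 1 of 230 closed and 0 of 76 opened channel peaks, against 0.0733% of all closed and 0.154% of all opened peaks. The match in Cacna1b had 2 mismatches and lay at chr2:24762084-24762103. With up to 4 mismatches, the Scn3b promoter peak also held a match.

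Genes that work with the channels were read in the same way, from a list of 39 genes in 4 groups. They had 145 opened and 304 closed peaks (32.3% opened, interval 28.1 to 36.8%, against 50.8% of all listed peaks), with closed peaks only at 13 genes, opened only at 5, both at 14 and none at 7, beside the counts over all protein-coding genes given above (3159 closed only, 5380 opened only and 6051 both). The sodium leak channel gene Nalcn and its auxiliary genes Unc79 and Unc80 had 14 closed and 0 opened peaks. The sodium channel partners split by gene. Fgf12, Fgf13 and Fgf14, cytoplasmic modulators of the sodium pore, had 15, 9 and 12 closed peaks and 0 opened, whereas Fgf11 of the same family had 2 opened and 0 closed. Ank2, an ankyrin scaffold, had 26 closed and 1 opened. Nedd4l, a ubiquitin ligase that acts on sodium channels, had 33 opened and 4 closed peaks, and Ank3, the ankyrin of the axon initial segment, had 19 opened and 15 closed. Of the calcium channel partners, the active zone genes Rims1 and Rims2 had 18 and 17 closed peaks and 0 and 1 opened ones, while the RIM-binding gene Rimbp2 had 6 closed and 9 opened. Among genes of calcium release and response, Ryr2, the ryanodine receptor of heart and brain, had 45 closed and 0 opened peaks, the most closed of the 39 genes. Camk2a and Camk2b, the neuronal calmodulin kinase genes, each had 6 closed and 0 opened peaks, whereas Camk2g had 13 opened and 0 closed and Camk2d had 11 opened and 12 closed. Itpr1, an inositol trisphosphate receptor, had 13 opened and 10 closed.

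Other ion channel genes were used for comparison. The 94 potassium channel genes had 702 listed peaks, of which 28.2% opened (interval 25 to 31.6%), an interval that overlaps that of the calcium and sodium channel genes (20.3 to 30.0%). The 53 glutamate, GABA and glycine receptor genes had 272 peaks, of which 12.1% opened (interval 8.77 to 16.5%), below the interval of the calcium and sodium channel genes. No test of these differences was made, since peaks of 1 gene are not independent and the files hold no replicate values. Within the channel genes, the calcium channel genes had 28.0% opened peaks (66 of 236, interval 22.6 to 34.0%) and the sodium channel genes 14.3% (10 of 70, interval 7.95 to 24.3%), and these intervals overlapped.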

How the data were processed

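The 2 lists of differentially accessible ATAC-seq peaks (mm10) hold the deposited data. Per the labels and methods, the authors trimmed reads, aligned them with Bowtie2 2.3.4.1, removed duplicates, called and merged MACS2 peaks, counted reads per peak and ran DESeq2 1.28.1 on GFPhigh against GFPneg cells. The deposited signal is the authors' mean of normalized counts over all libraries. The lists also hold 5 columns of the authors' comparison (fold change, its error, test statistic, p and adjusted p), which were not used, except to check that all rows met the limits of the lists (adjusted p of 0.001, absolute log2 fold change of 1). Depth per library is unknown, whether lanes and pairs of 1 mouse were summed is not given in the sources used here, no group level was derived, and the files hold no replicate values to test.

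Peak centres were assigned to the nearest protein-coding start site (GENCODE basic M21, GRCm38) with Python 3.11.15 and pandas 2.3.3, by code tested on simulated data. Peaks were classed as promoter (within 1 kb), exon, intron or intergenic. Motif words were searched in the central 200 bp, on both strands, and overlap between words was allowed. The RE1 consensus came from the study's list of motifs. Shares have 95% Wilson intervals and medians 95% order-statistic intervals, both for counting error only.

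Every channel gene enters the counts, and 2 of them, and some partner and marker genes, are not reported here individually. Set to be named were promoter peaks, the gene with most peaks per subfamily, RE1 matches and the 3 peaks of highest signal per direction. For partner genes these were the 3 with most opened and the 3 with most closed peaks. Not every promoter peak is given singly in the text. Other genes and peaks were named after their values were seen. Members and lists were chosen with earlier results of these data known. Alternatives were the assignment rule, distance, signal and promoter limits, merging, leaving out chromosome 11 from 50 Mb or 1 gene, and the motif window.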

Additional observations from a re-analysis of the deposited data

How the results depend on the processing

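Over the alternatives other than leaving out a gene, 40 of 47 values of the main results and 15 of 16 motif shares stayed within the 95% interval, or 1.5 times the count, of the value reported. The opened share of channel peaks ranged from 21.6% (without chromosome 11 from 50 Mb) to 33.4%. The latter came from taking peaks within the gene bodies and 10 kb either side, where 54.2% of all peaks opened, and the 34 values without 1 gene each were 21.9 to 27.3%. With start sites of any biotype, 176 peaks were assigned to channel genes and 27.3% of them opened, but the Cacnb share was 48.1% of 27 peaks, and without chromosome 11 from 50 Mb the Cacng share was 7.14%. With a promoter limit of 3 kb, 22.2% of closed channel peaks were at promoters (10.7% of all closed peaks). At a signal of at least 20, the median signals were 53.7 for opened and 44.4 for closed peaks, by the construction of that limit. In whole peaks the TEAD word was in 12.6% of closed channel peaks, and its intervals in closed and opened peaks then overlapped. With up to 4 mismatches there were 2 RE1 matches. No paired analysis was possible because the files hold no value per library, and leaving out a replicate was not possible for the same reason.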
